A study of Homo sapiens with 8 samples.

Results

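Guidance genes encode the ligands and receptors that steer growing axons and migrating cells: the semaphorins with their plexin and neuropilin receptors, the Eph receptor tyrosine kinases with their ephrin ligands, the Slits with the Robo receptors, and the netrins and repulsive guidance molecules with their receptors. Members were identified by their gene symbols among the probesets that the array annotation assigns to a single gene, which gave 77 probesets for 74 genes out of 18417 named genes on the array. Among them 2 match by name only, UNC50, a Golgi protein, and UNC5CL, a relative of the netrin receptors that is not itself known as one. RNA came from spheroids of the human ovarian adenocarcinoma cell line OVCAR-8 and of a cisplatin-resistant derivative, called OVCAR-8R in the methods and OVCAR-8C in the labels, with 4 arrays for each line. The resistant line was made by raising cisplatin stepwise to 5 μM and was found to keep its resistance when grown without the drug, whereas the parental line had no such exposure. Both lines were kept in serum-containing DMEM and grown as 300 μm spheroids in 2% agarose molds. OVCAR-8R is 1 derived line, so its differences from OVCAR-8 are those of a single selection. The titles call the arrays of a line biological replicates but do not say at which step the cultures were separated, so the p-values refer to the variation among these arrays, which may in part be technical.

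Semaphorins are secreted or membrane-bound proteins that signal through plexins, whose cytoplasmic part acts on small GTPases, and most of the secreted class 3 members bind a neuropilin as co-receptor. Eph receptors and ephrins are both anchored in the membrane and signal in both directions at contacts between cells, which sorts cells and sets tissue boundaries. Slits signal through Robo receptors and netrins through DCC, neogenin and the UNC5 family. Outside the nervous system these proteins act in vessel growth, epithelial adhesion and tumour cell migration.

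The OVCAR-8R arrays fell into pairs. For 48 of the 74 genes (64.9%) replicates 1 and 3 lay both above or both below replicates 2 and 4, as for 65% of all named genes, and no label names a step that the pairs share. The standard errors and p-values take the arrays of a line as independent, which these pairs put in doubt for OVCAR-8R. Where leaving out a pair ends or adds the call of a guidance gene, the value or the call is given beside it. The array medians were alike in the lines, from 6.68 to 6.73 in OVCAR-8R and from 6.67 to 6.73 in OVCAR-8.

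In OVCAR-8R spheroids, 12 guidance genes were higher and 7 were lower than in OVCAR-8 spheroids when a call required a limma adjusted p under 0.05 and a change of 2-fold or more. The secreted semaphorin gene SEMA3C showed the largest rise of the 74, a log2 difference of 4.29 (standard error 0.10), or 19.6-fold. The Slit ligand gene SLIT2 showed the largest fall, by 3.42 on the log2 scale (0.13), followed by the Eph receptor gene EPHA7, which fell by 3.10 (0.13). The other genes that rose were SEMA5A, NTNG1, EFNB2, SEMA3B, EPHA2, SEMA4B, NRP1, SEMA7A, PLXNB2, EFNB1 and EFNA5, and the other genes that fell were EPHA3, SEMA6A, EPHA6, SEMA3D and EPHA4. One further gene, DCC, was left out of the test because its signal lay in the lowest quartile in both lines, and 54 were tested and not called. A log2 RMA signal is the summary of a probeset's probes after the arrays were normalized to each other, and every difference is the mean over the OVCAR-8R arrays minus the mean over the OVCAR-8 arrays, with the standard error from limma. Levels of different genes are not comparable on this scale, and in RNA from whole spheroids fewer expressing cells and less RNA per cell cannot be told apart.

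Among the 15931 genes kept by the signal filter, 8.37% were called higher and 8.37% lower. With no filter all 74 guidance genes could be counted, and the same 12 (16.2%) and 7 (9.46%) were called, against 7.26% and 7.25% of the 18417 named genes. The share that fell was thus near the background and the share that rose was above it, which is a description of the counts without a test. The same shares are the background for the counts by family below, which cover few genes each and were not tested. At any size of difference 29 of the 73 guidance genes kept were higher and 15 lower at the same adjusted p, against 27.6% and 30% of the genes kept. The arrays of the lines did not overlap for 30 guidance genes that were higher (40.5%) and 15 that were lower (20.3%), against 24% and 26.9% of all named genes. The median log2 difference of the 74 genes was 0.14, beside -0.03 for all named genes, and the median of its absolute size was 0.37 beside 0.27. Only 3 guidance genes had more than 1 probeset (EPHA10, NRP2 and SEMA4D), and the probesets of each did not differ in the call.

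**Figure D1:**
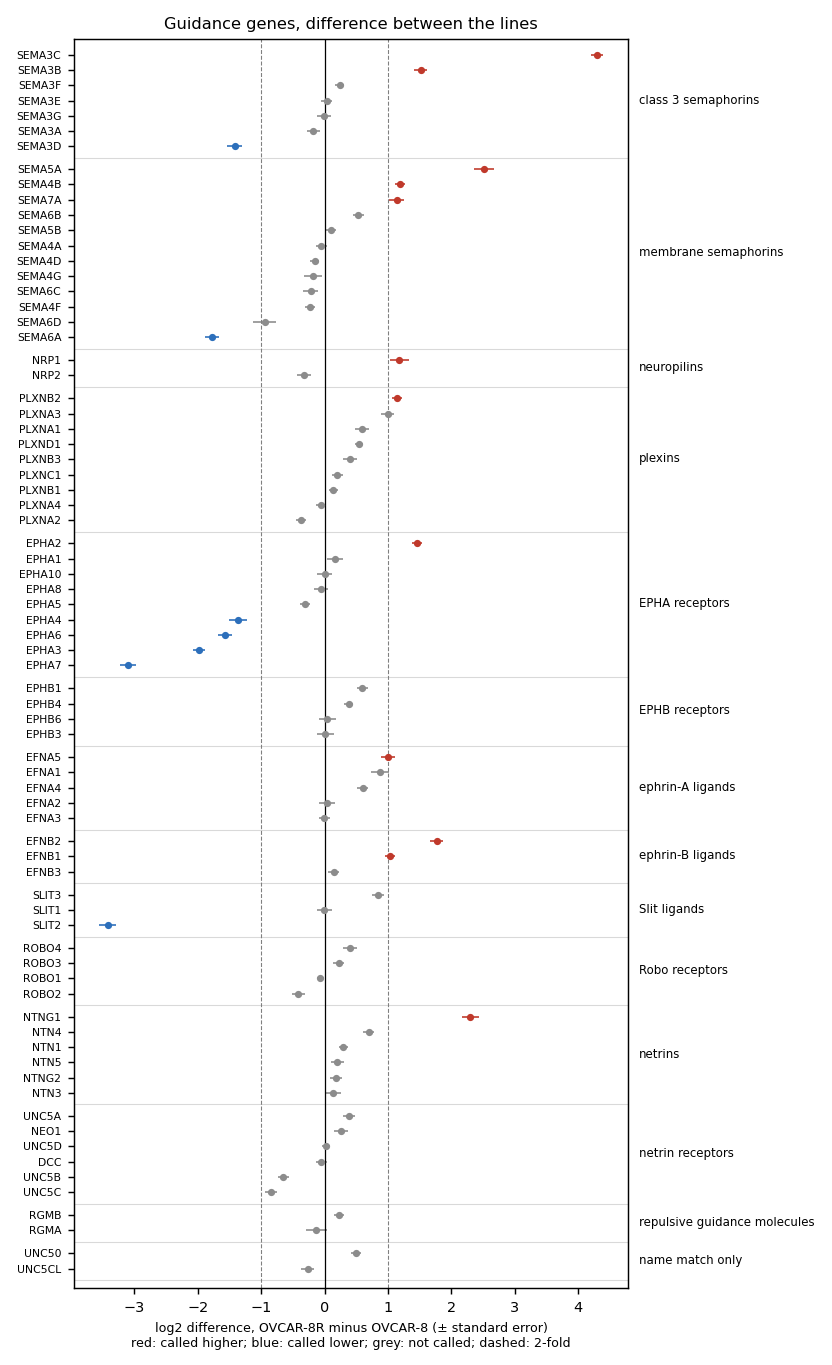
Log2 difference (x axis, OVCAR-8R minus OVCAR-8, with its standard error from the fit without the signal filter) of each of the 74 genes (y axis), grouped by family and ordered within it. The 12 genes in red and the 7 in blue are those called higher and lower, and the dashed lines mark 2-fold. SEMA3C lies farthest to the right at 4.29 and SLIT2 farthest to the left at -3.42.

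To place some of the genes with the largest differences, the sequences before their transcription starts are shown for the 5 with the largest differences among the 9 called members that have 1 start in the RefSeq promoter table (build GRCh38.p14). SLIT2 and EPHA3 fell, and SEMA5A, EFNB2 and EPHA2 rose. Each run holds the 250 bases before the start, 5′ to 3′ on the strand of the gene. They lie at chr4:20251655-20251904, plus strand (SLIT2), chr5:9546076-9546325, minus strand (SEMA5A), chr3:89107371-89107620, plus strand (EPHA3), chr13:106535663-106535912, minus strand (EFNB2) and chr1:16156070-16156319, minus strand (EPHA2). Capitals mark matches on either strand to GGGCGG, the core of the SP1 box, or GGAATG, the core bound by TEAD factors, whereas TGANTCA, the motif of AP-1, has no match in these 5 windows.
SLIT2: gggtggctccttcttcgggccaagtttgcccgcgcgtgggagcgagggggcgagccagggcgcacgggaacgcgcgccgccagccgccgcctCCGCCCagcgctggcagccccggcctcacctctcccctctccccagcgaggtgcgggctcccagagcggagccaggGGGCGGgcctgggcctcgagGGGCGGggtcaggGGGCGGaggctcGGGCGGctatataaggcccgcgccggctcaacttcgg
SEMA5A: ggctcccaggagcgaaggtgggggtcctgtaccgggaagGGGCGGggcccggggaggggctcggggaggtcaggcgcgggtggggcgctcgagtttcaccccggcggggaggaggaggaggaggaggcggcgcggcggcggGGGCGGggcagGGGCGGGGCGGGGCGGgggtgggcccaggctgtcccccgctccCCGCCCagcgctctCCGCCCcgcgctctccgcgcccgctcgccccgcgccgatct
EPHA3: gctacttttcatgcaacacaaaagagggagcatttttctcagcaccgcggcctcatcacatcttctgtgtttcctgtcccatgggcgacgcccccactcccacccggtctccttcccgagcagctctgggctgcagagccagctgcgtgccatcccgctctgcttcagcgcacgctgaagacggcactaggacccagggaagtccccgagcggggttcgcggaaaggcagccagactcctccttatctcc
EFNB2: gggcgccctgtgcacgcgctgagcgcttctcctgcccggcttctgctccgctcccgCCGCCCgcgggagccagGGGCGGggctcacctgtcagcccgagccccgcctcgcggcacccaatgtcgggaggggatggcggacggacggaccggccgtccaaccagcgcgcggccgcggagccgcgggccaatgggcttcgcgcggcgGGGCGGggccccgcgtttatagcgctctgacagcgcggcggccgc
EPHA2: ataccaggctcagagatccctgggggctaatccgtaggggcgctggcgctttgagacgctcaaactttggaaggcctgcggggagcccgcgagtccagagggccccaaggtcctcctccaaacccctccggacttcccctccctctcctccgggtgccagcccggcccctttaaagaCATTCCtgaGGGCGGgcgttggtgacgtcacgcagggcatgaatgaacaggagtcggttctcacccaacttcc

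The share of G and C ran from 61.2% in EPHA3 and 63.2% in EPHA2 to 82.0% in SEMA5A, beside a median of 58.0% over all promoter windows and of 65.4% over those of guidance genes not called. The number of CpG dinucleotides ran from 15 in EPHA3 and EPHA2 to 40 in EFNB2, beside medians of 11 and 17.5. With matches that share a base counted separately, GGGCGG occurs 7 times in SEMA5A, 5 in SLIT2, 3 in EFNB2, 1 in EPHA2 and 0 in EPHA3, and GGAATG occurs 1 time in EPHA2. SEMA3D, the other gene with 1 start that fell, also has 0 matches to GGGCGG, so that SLIT2 is the only one of these 3 with a match, while PLXNB2, EFNB1 and EFNA5, the others that rose, have 1, 1 and 3. Promoter windows were found for 63 of the 74 genes, and a gene with several starts counts once per start. The 21 windows of genes that rose came from 11 genes, the 10 of genes that fell from 6 and the 70 of genes not called from 45. GGGCGG occurred in 16 of 21 windows of genes that rose (76.2%), in 7 of 10 of genes that fell (70%) and in 49 of 70 of genes not called (70%), against 42.6% of 35116 windows of all genes. GGAATG occurred in 3 of the 21, 0 of the 10 and 5 of the 70, against 11.9% of all, and TGANTCA in 0, 0 and 2, against 6.57% of all. The windows of all genes came from 27305 genes and were not restricted to protein-coding ones, whereas all 74 guidance genes encode proteins. Their motif shares and medians are therefore no matched background. The windows of one gene can overlap, and a match describes letters, not a bound site.

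Of the 7 class 3 semaphorin genes, SEMA3C and SEMA3B rose, SEMA3D fell and 4 were not called. That is 28.6% higher and 14.3% lower, beside 8.37% of all genes kept in each direction. SEMA3C, whose product binds neuropilins together with plexins, had log2 signals of 10.52, 10.73, 10.64 and 10.83 on the OVCAR-8R arrays and of 6.32, 6.42, 6.25 and 6.56 on the OVCAR-8 arrays. The 2 lines were thus separated by far more than the spread within either (adjusted p = 8.35e-10 from limma). SEMA3B, a semaphorin known as a candidate tumour suppressor, had signals of 7.61, 7.39, 7.36 and 7.36 against 5.84, 6.13, 5.95 and 5.72. It rose by 1.52 (0.10, adjusted p = 1.25e-06), and its lowest OVCAR-8R array lay above every OVCAR-8 array. SEMA3D, known as a repellent for endothelial and neural crest cells, had signals of 6.18, 6.33, 6.34 and 5.95 against 7.34, 7.68, 7.68 and 7.75. It fell by 1.41 (0.12, adjusted p = 5.41e-06), again without overlap. SEMA3F differed by 0.24 (0.07), SEMA3A by -0.18 (0.10), and SEMA3E and SEMA3G by 0.03 (0.09) and -0.00 (0.11).

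The 12 membrane-anchored semaphorin genes of classes 4 to 7 with a single-gene probeset held 3 that rose, 1 that fell and 8 that were not called. These are 25% higher and 8.33% lower, beside 8.37% of all genes kept in each direction. SEMA4C was not among the 12. SEMA5A, a transmembrane semaphorin with thrombospondin repeats, had signals of 8.23, 8.11, 7.84 and 8.16 in OVCAR-8R and of 5.07, 5.72, 5.72 and 5.78 in OVCAR-8. It rose by 2.51 (0.16, adjusted p = 8.54e-07), or 5.71-fold. SEMA4B rose by 1.19 (0.08), with OVCAR-8R arrays between 7.87 and 8.17 and OVCAR-8 arrays between 6.71 and 6.88. SEMA7A, which is held in the membrane by a lipid anchor and binds plexin-C1 and β1 integrins, rose by 1.14 (0.12), from 6.31 to 6.85 on the OVCAR-8 arrays to 7.64 to 7.93 on the OVCAR-8R arrays. In the opposite direction, SEMA6A, a ligand of plexin-A2 and plexin-A4, had signals of 6.34, 6.78, 6.68 and 6.54 against 8.27, 8.22, 8.53 and 8.42. It fell by 1.77 (0.11, adjusted p = 7.58e-07), a 3.41-fold difference. Its relative SEMA6D differed by -0.94 (0.18) and was not called. The OVCAR-8 arrays of SEMA6D spread widely, at 6.22, 6.09, 6.84 and 6.95, and without OVCAR-8 replicate 1 or without replicate 2 it was called lower. SEMA6B differed by 0.53 (0.09), and the other 6 genes lay between -0.23 (SEMA4F) and 0.10 (SEMA5B).

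Of the receptor genes for the semaphorins, NRP1 and PLXNB2 rose and none fell. NRP1, the co-receptor of class 3 semaphorins that also binds VEGF-A, rose by 1.18 (0.15, adjusted p = 9.33e-05). Its signals were 7.39, 7.81, 7.37 and 7.94 on the OVCAR-8R arrays and 6.24, 6.37, 6.55 and 6.64 on the OVCAR-8 arrays. Replicates 1 and 3 of OVCAR-8R were the lower pair, and without replicates 2 and 4 the difference was 0.93, under 2-fold. NRP2, the other neuropilin gene, differed by -0.32 (0.11), and its lines overlapped.

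Of 9 plexin genes, PLXNB2 rose and 8 were not called. PLXNB2, a receptor of class 4 semaphorins, had signals of 9.11, 9.35, 9.08 and 9.31 against 8.10, 8.08, 8.08 and 8.04, a rise of 1.14 (0.08, adjusted p = 1.73e-06). PLXNA3 differed by 0.99 (0.10, adjusted p = 1.62e-05), just under the 2-fold line, and was called higher when OVCAR-8R replicate 1 or 3 or OVCAR-8 replicate 1 or 2 was left out, and without OVCAR-8R replicates 1 and 3 together. PLXNA1, PLXND1 (the receptor that binds SEMA3E directly and SEMA3C with neuropilins) and PLXNB3 (a receptor of SEMA5A) differed by 0.59 (0.11), 0.54 (0.07) and 0.40 (0.11), with separate arrays in the lines but under 2-fold. The plexin partners of SEMA6A and SEMA7A had small differences, -0.37 (0.08) for PLXNA2, -0.06 (0.07) for PLXNA4 and 0.20 (0.09) for PLXNC1. The lines were separate for PLXNA2 and overlapped for PLXNA4 and PLXNC1. PLXNB1, the main SEMA4D receptor, differed by 0.14 (0.07), and SEMA4D itself by -0.16 (0.07). At any size of difference, 5 of the 9 plexin genes were higher and 1 was lower at a limma adjusted p under 0.05. Among all genes kept, the shares at that threshold were 27.6% higher and 30% lower.

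**Figure D2:**
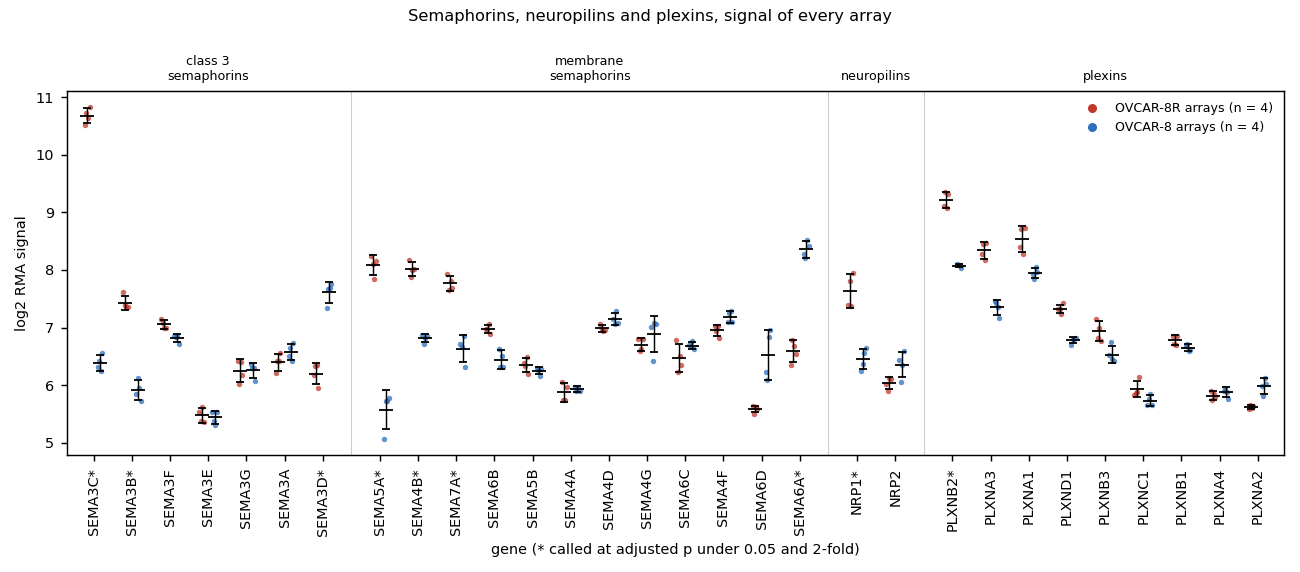
Log2 RMA signal (y axis) of each semaphorin, neuropilin and plexin gene (x axis) with 1 point per array, red for OVCAR-8R and blue for OVCAR-8 (4 each), and black bars for each line's mean and SD. Signals are comparable within a gene, not between genes. The arrays of SEMA3C lie between 10.52 and 10.83 in OVCAR-8R and between 6.25 and 6.56 in OVCAR-8, and the asterisks mark called genes.

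The EPHA receptor genes moved in both directions, with EPHA2 higher, EPHA7, EPHA3, EPHA6 and EPHA4 lower, and 4 of the 9 not called. Lower were thus 44.4% and higher 11.1%, beside 8.37% of all genes kept in each direction, counted without a test. EPHA7, a receptor known from neural tissue boundaries, had signals of 4.97, 5.07, 5.51 and 5.36 on the OVCAR-8R arrays and of 8.24, 8.41, 8.18 and 8.48 on the OVCAR-8 arrays. It fell by 3.10 (0.13, adjusted p = 4.54e-08), which is 8.57-fold, and its OVCAR-8R mean of 5.23 lay just above the lowest-quartile bound of 5.11. EPHA3, which is expressed in developing mesenchyme and prefers ephrin-A5 as ligand, had signals of 5.77, 5.59, 5.65 and 5.48 against 7.37, 7.68, 7.67 and 7.68. It fell by 1.98 (0.10, adjusted p = 1.50e-07). EPHA6 fell by 1.57 (0.11), from a range of 6.33 to 6.60 to a range of 4.57 to 5.03, and since its OVCAR-8R mean falls within the lowest quartile this size is a lower bound.

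EPHA4, which binds ephrins of both classes, fell by 1.37 (0.14, adjusted p = 2.27e-05). Its OVCAR-8R arrays read 6.46, 6.95, 6.41 and 6.88, and its OVCAR-8 arrays 8.15, 7.82, 8.19 and 8.02, so the lines did not overlap although replicates 1 and 3 of OVCAR-8R lay below replicates 2 and 4. EPHA2, the Eph receptor typical of epithelia and often abundant in carcinomas, went the other way. It had signals of 8.98, 9.13, 9.03 and 9.12 against 7.63, 7.74, 7.58 and 7.48 and rose by 1.45 (0.08, adjusted p = 2.61e-07), or 2.74-fold. EPHA5 differed by -0.31 (0.07), and EPHA1, EPHA10 and EPHA8 had differences of 0.16, 0.00 and -0.05 with overlapping lines, although a dimmer EPHA10 probeset differed by 0.31 (0.06) with separate lines.

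None of the 4 EPHB receptor genes with a single-gene probeset was called at 2-fold, and EPHB2 was not among them. EPHB1 differed by 0.60 (0.09, adjusted p = 0.000299 from limma) and EPHB4, the receptor of ephrin-B2 in veins, by 0.38 (0.07, adjusted p = 0.00157), and the lines did not overlap in either gene. EPHB6, which lacks kinase activity, and EPHB3 differed by 0.04 (0.14) and 0.01 (0.13).

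Of the 8 ephrin genes, 3 rose, 5 were not called and none fell, beside 8.37% of all genes kept called in each direction. EFNB2, the transmembrane ligand of EPHB4 and EPHA4, had signals of 8.36, 8.62, 8.46 and 8.64 in OVCAR-8R and of 6.73, 6.60, 6.69 and 7.0 in OVCAR-8. It rose by 1.76 (0.11, adjusted p = 5.40e-07), which is 3.40-fold and the largest ephrin difference. EFNB1, the other broadly expressed B-class ligand, rose by 1.03 (0.08), from 7.60 to 7.86 up to 8.63 to 8.88, and EFNA5, a lipid-anchored ligand of EPHA receptors, by 1.01 (0.11), from 8.52 to 8.75 up to 9.34 to 9.78. Both lie at the 2-fold line. The EFNB1 call ended when replicate 1 of OVCAR-8R or replicate 3 of OVCAR-8 was left out (0.99 in both cases), and at 0.96 without the OVCAR-8R pair of replicates 1 and 3. The EFNA5 call ended without OVCAR-8R replicate 2 or 4 or any of OVCAR-8 replicates 1 to 3, with the difference then between 0.94 and 0.99, and at 0.83 without replicates 2 and 4 of OVCAR-8R together. EFNA1, the ligand most often paired with EPHA2, differed by 0.88 (0.14, adjusted p = 0.000575), under 2-fold, and was called higher at 2-fold without OVCAR-8 replicate 2, whose signal of 6.86 was the highest of that line. EFNA4 differed by 0.60 (0.09), EFNB3 by 0.14 (0.09), EFNA2 by 0.04 (0.13) and EFNA3 by -0.01 (0.09).

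**Figure D3:**
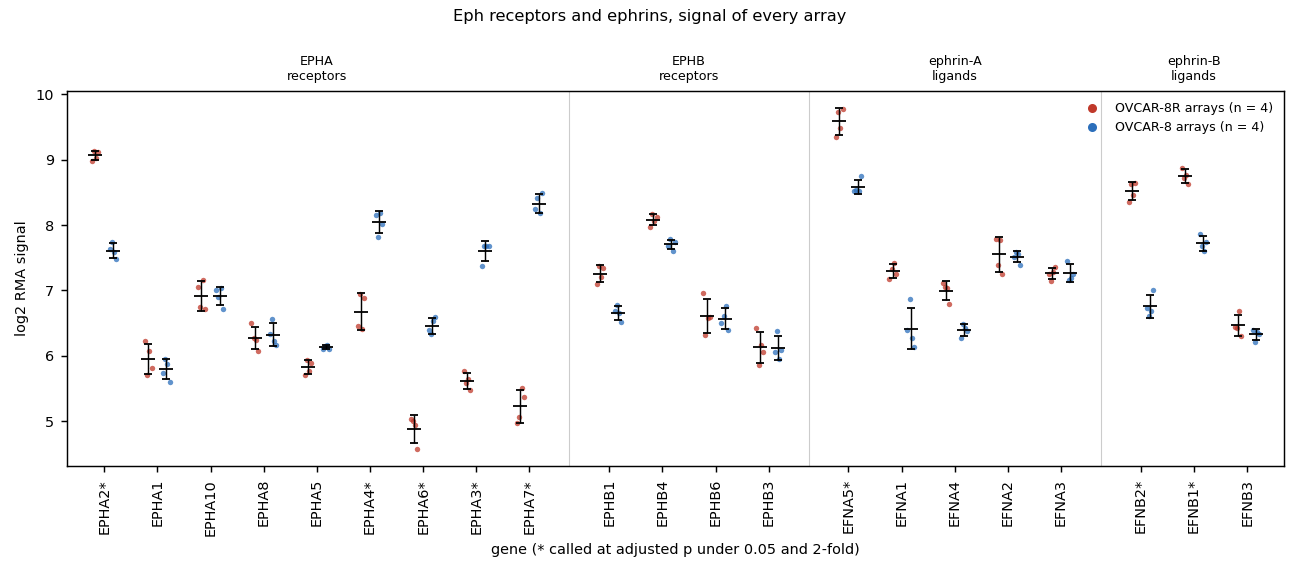
Log2 RMA signal (y axis) of each Eph receptor and ephrin gene (x axis) with 1 point per array, red for OVCAR-8R and blue for OVCAR-8 (4 each), and black bars for each line's mean and SD. Asterisks mark called genes. The OVCAR-8R arrays of EPHA7 lie between 4.97 and 5.51 and its OVCAR-8 arrays between 8.18 and 8.48, whereas those of EFNB2 lie between 8.36 and 8.64 and between 6.60 and 7.0.

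Among the Slits, SLIT2 fell and the other two were not called. SLIT2, a large secreted protein that repels axons and migrating cells through Robo receptors, had signals of 9.54, 9.27, 9.74 and 9.64 on the OVCAR-8 arrays. On the OVCAR-8R arrays they were 5.87, 6.18, 6.07 and 6.38, a 10.7-fold difference without overlap (adjusted p = 2.89e-08). Its relative SLIT3 differed in the opposite direction, by 0.84 (0.09, adjusted p = 2.53e-05), with arrays of 7.06 to 7.25 against 6.18 to 6.48, and SLIT1 by -0.00 (0.12). The signal of ROBO1, a receptor gene of SLIT2, was nearly level, at 9.66 to 9.74 against 9.74 to 9.79 and a difference of -0.07 (0.06). ROBO2 differed by -0.41 (0.11), ROBO3 by 0.22 (0.08) and ROBO4, the Robo of endothelial cells, by 0.40 (0.11). Each had separate lines, and none of them was called.

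One of 6 netrin genes rose. NTNG1 encodes netrin-G1, a lipid-anchored netrin that does not bind the classical netrin receptors and acts at synapses. Its signals were 8.35, 8.66, 8.26 and 8.68 in OVCAR-8R and 5.89, 6.44, 6.31 and 6.12 in OVCAR-8, a rise of 2.30 (0.14, adjusted p = 6.02e-07), or 4.92-fold. The secreted netrins NTN4, found in basement membranes, and NTN1 differed by 0.69 (0.08) and 0.30 (0.07), with separate lines in both. NTN5, NTNG2 and NTN3 had differences of 0.20, 0.17 and 0.14, and their lines overlapped.

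No netrin receptor gene was called. UNC5C and UNC5B, dependence receptors that can trigger cell death when netrin is absent, differed by -0.85 (0.10, adjusted p = 4.33e-05 from limma) and -0.65 (0.09, adjusted p = 0.000161), each with separate lines, while UNC5A differed by 0.39 (0.10). NEO1 (neogenin), a receptor of netrins and of repulsive guidance molecules, differed by 0.26 (0.11) and UNC5D by 0.03 (0.07). DCC, the founding netrin receptor, had signals of 4.71 to 4.82 in OVCAR-8R and of 4.60 to 4.97 in OVCAR-8, in the lowest quartile in both. RGMB and RGMA, lipid-anchored ligands of neogenin and co-receptors for BMPs, differed by 0.23 (0.08) and -0.13 (0.17). The OVCAR-8R arrays of RGMA spread from 7.08 to 8.01, with the largest SD of the 77 probesets in that line (0.40). The name-only matches UNC50 and UNC5CL differed by 0.50 (0.08) and -0.27 (0.10).

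**Figure D4:**
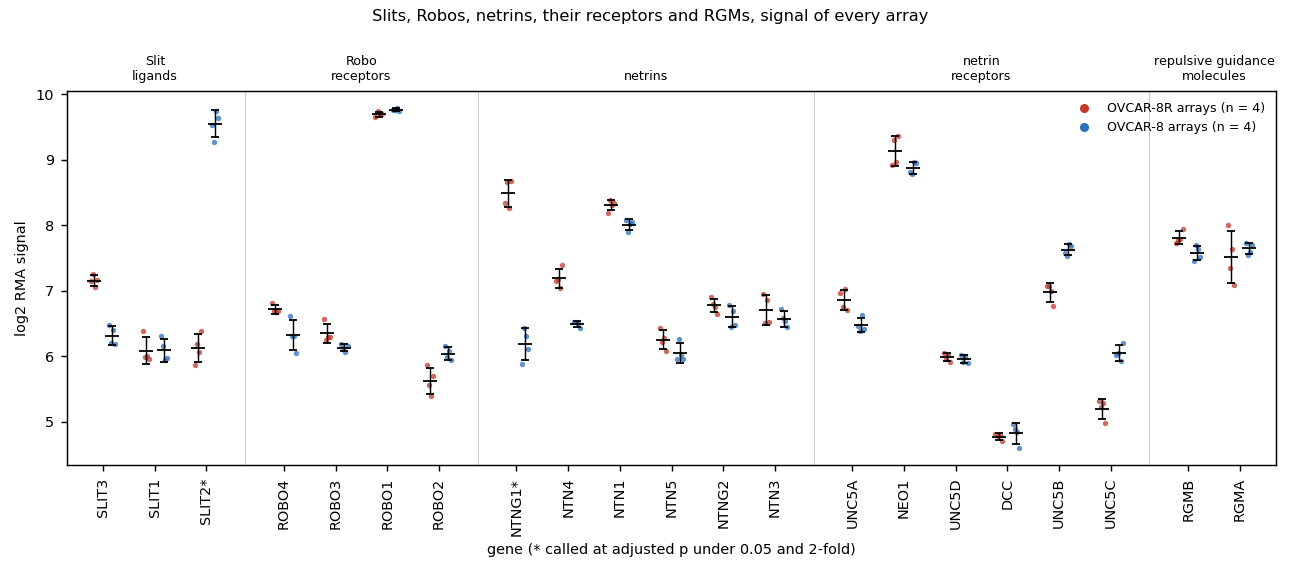
Log2 RMA signal (y axis) of Slit, Robo, netrin, netrin receptor and repulsive guidance molecule genes (x axis) with 1 point per array, red for OVCAR-8R and blue for OVCAR-8 (4 each), and black bars for each line's mean and SD. Asterisks mark called genes. SLIT2 and NTNG1 are the called genes, and the ROBO1 arrays lie between 9.66 and 9.79 in both lines together.

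Co-receptors and intracellular effectors of these families were listed from general knowledge, with earlier results of these data known, and counted without a test. Of the 58 measured, 18 were higher (31%), 3 lower (5.17%) and 37 not called, beside 8.37% of all genes kept in each direction. Their median log2 difference was 0.22, against -0.01 for the genes kept. Without replicates 2 and 4 of OVCAR-8R, 15 were higher and 4 lower, and without replicates 1 and 3, 19 were higher and 3 lower. The shares over all genes were not counted for these fits. For semaphorin and plexin signalling, 7 of 21 rose and 2 fell. L1CAM, an adhesion molecule that joins the neuropilin-1 receptor complex, rose by 3.30 (0.12), from 5.78 to 6.29 on the OVCAR-8 arrays to 9.18 to 9.49 on the OVCAR-8R arrays. RRAS, a small GTPase inactivated by plexins, rose by 2.78 (0.08), MICAL2, an actin-oxidizing enzyme, by 2.17 (0.09) and DPYSL2, the semaphorin mediator CRMP2, by 2.01 (0.08). DPYSL5, the related CRMP5, fell by 2.14 (0.15) and the VEGF receptor gene FLT1 by 1.39 (0.09), a lower bound since its OVCAR-8R arrays, at 4.41 to 4.64, lie in the lowest quartile.

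For Eph and ephrin signalling, 4 of 19 rose and 1 fell. The kinase genes ABL2 and ABL1, which act on the cytoskeleton downstream of Eph receptors, rose by 1.94 (0.06) and 1.26 (0.07), VAV2, a guanine nucleotide exchange factor, by 1.11 (0.14) and INPPL1, the lipid phosphatase SHIP2 that binds EPHA2, by 1.06 (0.10). The calls of VAV2 and INPPL1 ended without OVCAR-8 replicate 2, at 0.98 and 0.97, and without replicates 2 and 4 of OVCAR-8R, at 0.97 and 0.96. PTPN13, a phosphatase that binds B-class ephrins, fell by 1.93 (0.09). For Slit, Robo and netrin signalling, 7 of 18 rose and none fell. ABLIM3, an actin-binding protein, rose by 2.67 (0.12), TRIO, an exchange factor used by DCC, by 2.56 (0.07), the focal adhesion kinase gene PTK2 by 1.41 (0.06) and SRGAP1, a GTPase-activating protein that binds Robo receptors, by 1.38 (0.10).

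**Figure D5:**
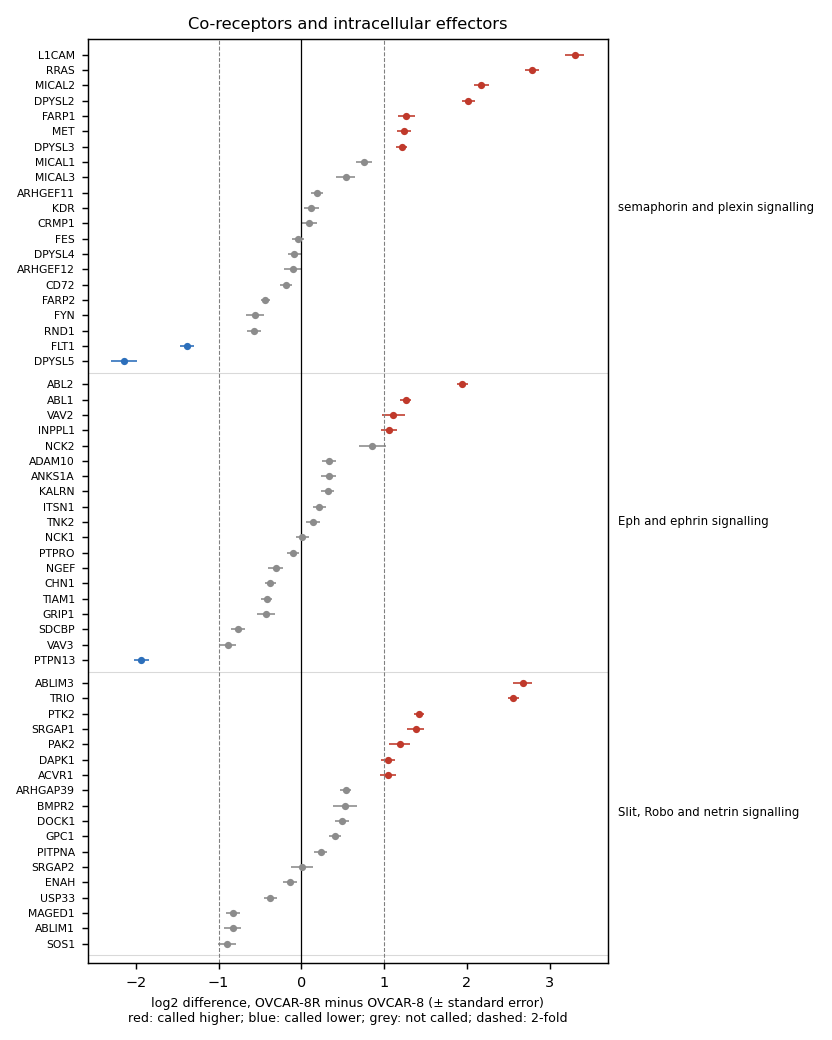
Log2 difference (x axis, OVCAR-8R minus OVCAR-8, with its standard error from the fit without the signal filter) of the 58 measured co-receptor and effector genes (y axis) in 3 lists, with called genes in red (18 higher) and blue (3 lower) and dashed lines at 2-fold. L1CAM lies farthest to the right at 3.30 and DPYSL5 farthest to the left at -2.14.

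Markers were read to check the labelled cell type and other cells in which guidance genes are known. Of 8 ovarian carcinoma and epithelial markers, 6 were higher in OVCAR-8R (PAX8, MSLN, EPCAM, KRT7, KRT8 and KRT18) and WT1 and MUC16 were not called. MUC16, the gene of CA-125, had mean signals of 5.74 and 5.67, not far above the lowest-quartile bounds. WT1, a lineage marker of serous ovarian tumours, differed in the opposite direction, by -0.86 (0.12, adjusted p = 0.000202 from limma), with separate lines. The log2 signal of PAX8, a defining marker of this tumour type, was 10.28 in OVCAR-8R and 6.51 in OVCAR-8, and the summed log2 signal of the list ran from 74.4 to 75.6 against 56.3 to 57.3. None of 5 endothelial markers was called, and their sums overlapped (28.5 to 29.6 against 28.1 to 28.6). Of 4 measured haematopoietic markers none was called, with PTPRC and CD3E in the lowest quartile in both lines and sums of 21.5 to 22.3 against 21.3 to 22.0. Of 5 neuronal markers NEFL fell by 2.49, STMN2 lay in the lowest quartile in both lines and 3 were not called. SYP differed by -0.84 (0.09) and the brightest RBFOX3 probeset by 0.56 (0.09), each with separate lines, and SNAP25 by 0.16 (0.12). The median difference of the neuronal list was -0.03, and its sums were 30.6 to 31.3 against 33.3 to 34.1. The part that these marker differences have in the guidance gene differences was not tested.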

How the data were processed

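Spheroid RNA was measured on the Affymetrix Human Gene 1.0 ST platform, 4 arrays per line. The authors calculated signals by RMA in Expression Console (version 1.1) and deposited 1 linear intensity per probeset and array, for 33297 probesets. RMA fits the arrays to a shared distribution, so a difference in total signal between the lines cannot be seen. For this work log2 of each deposited intensity was taken. Gene names came from the platform annotation, in which 19460 probesets carry 1 gene, with symbols looked up in RefSeq tables (GRCh38.p14). Following the methods, probesets in the lowest 25% of both lines were dropped (bounds 5.11 and 5.16), which kept 25628. The lines were compared with lmFit and eBayes in limma 3.58.1 (R 4.3.3), Benjamini-Hochberg adjustment over all probesets kept, and calls at 0.05 and 2-fold. A gene was represented by its brightest probeset. Every guidance gene could be named, and of each effector list up to 4 called genes per direction with the largest differences. The members and lists were chosen with earlier results of these data known. Motifs were searched on both strands of the 250 bases before each RefSeq start. Arrays give no read depth, and their number limits the precision. Alternatives were other filters, thresholds, tests, scalings, array weights, probeset averaging, a replicate block and leaving out arrays.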

Additional observations from a re-analysis of the deposited data

Results flagged for a closer look

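In 6 of 148 sets of 4 arrays (74 genes in both lines, 4.05%), 1 array stood far from the other 3 by Dixon's ratio, and chance gives about 1 in 20. In OVCAR-8R these were replicate 1 of SEMA3B, at 7.61 against 7.36 to 7.39, and replicate 1 of SLIT1, at 6.395 against 5.95 to 6.01. In OVCAR-8 they were replicate 1 of EPHA3, at 7.37 against 7.67 to 7.68, replicate 1 of SEMA5A, at 5.07 against 5.72 to 5.78, replicate 2 of SEMA4G, at 6.42 against 7.005 to 7.07, and replicate 4 of EFNA5, at 8.75 against 8.52 to 8.53. The calls of SEMA3B, EPHA3 and SEMA5A held without each of these arrays, and that of EFNA5 held without OVCAR-8 replicate 4.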

How the results depend on the processing

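No call of a guidance or effector gene turned its direction under the 23 alternatives, of which 2 were chosen after seeing the data (without OVCAR-8R replicates 2 and 4, and without replicates 1 and 3). Of the 19 guidance calls 12 held wherever the gene was tested, and 7 ended under at least 1 alternative. The counts moved most with the threshold. Under limma's treat, testing against a 2-fold change, 6 guidance genes were higher, without EFNA5, PLXNB2, EFNB1, SEMA4B, SEMA7A and NRP1, EPHA4 was no longer lower, and 10 effector genes were higher. At any size of difference the counts were 29 higher and 15 lower for guidance genes and 30 higher and 16 lower for effector genes. Of all genes kept, 27.6% were higher and 30% lower at that threshold. No share over all genes is given for treat or for the fits that leave out arrays, so those counts have no background here. Leaving out 1 array gave 10 to 13 guidance genes higher, 7 to 8 lower, 16 to 18 effector genes higher and 3 lower. Centring the arrays on the median ended the EFNA5 call. Without OVCAR-8R replicates 2 and 4, 10 guidance genes were higher, and the calls of EFNA5 (0.83) and NRP1 (0.93) ended, as did those of the effector genes INPPL1, VAV2 and ACVR1 (0.90), while SOS1 was called lower. Without replicates 1 and 3, EFNB1 was lost and PLXNA3 and the effector gene NCK2 were gained. ACVR1, SOS1 and NCK2 were named after their values were seen. Replicate numbers did not pair the arrays (r of same-numbered deviations 0.17, -0.32, -0.05 and 0.44, with 1 of 4 closest to its own number), and the fit with a replicate block gave 12, 7, 18 and 3 calls, as did the fit without the block. EPHA6 and FLT1 were not tested under the stricter filter, which leaves them out. Signals in the lowest quartile lie near background, so the size of a fall of the mean into it (EPHA6, FLT1) is only a bound. The EPHA7 mean stayed above it, but its OVCAR-8R replicates 1 and 2, at 4.97 and 5.07, lay under the limit of 5.11. OVCAR-8 replicate 1 of SEMA5A, at 5.07, lay under the OVCAR-8 limit of 5.16.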

Other observations

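The 4 OVCAR-8R arrays fell into 2 pairs. Deviations from the line's mean correlated between replicates 1 and 3 (r = 0.427 over the probesets kept) and between replicates 2 and 4 (r = 0.484). For 48 of the 74 guidance genes (64.9%) both arrays of one pair lay above both of the other, as for 65% of all named genes, whereas the same numbers in OVCAR-8 gave 33.8% and 29.7%. An example is PLXNA1, at 8.40 and 8.28 on replicates 1 and 3 and at 8.72 and 8.74 on replicates 2 and 4. The labels name no step shared by these pairs, and the cause was not tested.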
